A study of Mus musculus with 6 samples.

Results

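The fast fibre contractile genes are 10 genes of the fast muscle sarcomere and its calcium control: the myosin heavy chains *Myh1*, *Myh2* and *Myh4*, the myosin light chains *Myl1* and *Mylpf*, the troponin subunits *Tnnt3*, *Tnni2* and *Tnnc2*, the actin cross-linker *Actn3*, and the calcium buffer *Pvalb*. They were taken by gene symbol from a table of 41709 genes, and all 10 were found and passed the filter on low values. The table holds RNA-seq values of 6 tibialis anterior (TA) muscles of male C57BL/6 J mice, 3 electroporated with a plasmid for wild-type mouse *Lrpprc* (LrpprcWT) and 3 with a plasmid for LrpprcP27A, in which the proline that can be dihydroxylated is replaced by alanine. *Lrpprc* is an RNA-binding protein best known for keeping mitochondrial mRNAs stable. In both groups the plasmid coded for a Flag-tagged protein under a cytomegalovirus promoter, which is not restricted to muscle fibres, and the muscles still had their own *Lrpprc* gene. The other TA of the same mouse received the other plasmid, and muscles were collected a fortnight after electroporation. There is no unelectroporated muscle among these libraries, so LrpprcWT muscle is the control. The study electroporated young and old mice, and the age of the mice sequenced and the share of fibres that took up the plasmid are not given in the sources used here.

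Muscle contracts when calcium binds troponin C, troponin shifts tropomyosin on the thin filament, and myosin heads pull on actin. Mammals keep separate genes for fast and slow versions of most of these proteins, and the fast heavy chains are further divided into type 2a (*Myh2*), type 2x (*Myh1*) and type 2b (*Myh4*), in order of rising shortening speed. The mouse TA is a fast muscle made mostly of type 2x and 2b fibres, with few type 2a and hardly any slow fibres.

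The values are TPM, transcript levels corrected for length and set to sum to 1000000 in each library. The number of reads behind a value is unknown, and a gene's TPM depends on what the other genes of its library take. That matters here, because the composition of the libraries differed. Nuclear protein-coding genes held between 51.5% and 59.6% of TPM with LrpprcWT and between 46.9% and 49.4% with LrpprcP27A, a difference in means of -6.99 percentage points. Genes of the mitochondrial genome held 40.8%, 45.2% and 36.0% with LrpprcWT and 46.1%, 44.2% and 45.1% with LrpprcP27A, with overlap (exact permutation test, two-sided, p = 0.3), and the ribosomal RNA gene *Rn18s-rs5* had 8874 to 17614 TPM with LrpprcWT and 37023 to 44435 TPM with LrpprcP27A. On the deposited scale the median log2 fold change (LrpprcP27A against LrpprcWT) of the 11611 genes tested was -0.32. Each fold change is therefore also given after median-of-ratios scaling, which divides each library by the median ratio of its genes to their means over the libraries and brings the median of all genes to -0.0047. The scaling factors were 1.22, 0.969 and 1.25 in the LrpprcWT libraries of replicates 1, 2 and 3 and 0.847 to 0.895 with LrpprcP27A, so the LrpprcWT library of replicate 2 lay between the others of its group and the LrpprcP27A libraries. *Lrpprc* itself had 35.1, 37.0 and 75.2 TPM with LrpprcWT and 26.9, 29.7 and 26.0 TPM with LrpprcP27A, a value that does not separate plasmid from mouse transcripts and so does not check the labels.

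The first question was how abundant the fast genes are. Together they held 10.2%, 11.3% and 11.5% of TPM in the LrpprcWT libraries and 9.50%, 11.1% and 10.3% in the LrpprcP27A libraries. The means of 11.0% ± 0.690 and 10.3% ± 0.795 (SD, n = 3) differed by less than other groupings of the muscles could give (exact permutation test, two-sided, p = 0.3). The share was lower with LrpprcP27A in 3 of 3 pairs of muscles with the same replicate number. Counted against nuclear protein-coding genes only, the share turned the other way, with 18.7%, 22.0% and 19.4% against 20.2%, 22.4% and 21.2% (exact permutation test, two-sided, p = 0.3). Of the 10 genes, 9 were among the 50 most abundant of all genes tested, and *Myh2* was the lowest at rank 265. Fast isoforms were above their slow counterparts in every library, as the label of a TA muscle calls for.

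With LrpprcWT the order of mean TPM was *Mylpf*, *Tnnt3*, *Pvalb*, *Tnnc2*, *Myh4*, *Myl1*, *Tnni2*, *Myh1*, *Actn3* and *Myh2*. Neighbours in this order overlapped between libraries from *Tnnt3* down to *Myl1*, and again for *Tnni2* and *Myh1*. *Mylpf* stood above *Tnnt3*, and *Actn3* stood below *Myh1* and above *Myh2*, in every LrpprcWT library and with no overlap. With LrpprcP27A the order was *Tnnt3*, *Myh4*, *Tnnc2*, *Mylpf*, *Pvalb*, *Myl1*, *Tnni2*, *Myh1*, *Actn3* and *Myh2*. *Mylpf* went from the first place to the fourth and *Myh4* from the fifth to the second, although the ranges of the first 5 genes in that order overlapped from each to the next.

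**Figure D1:**
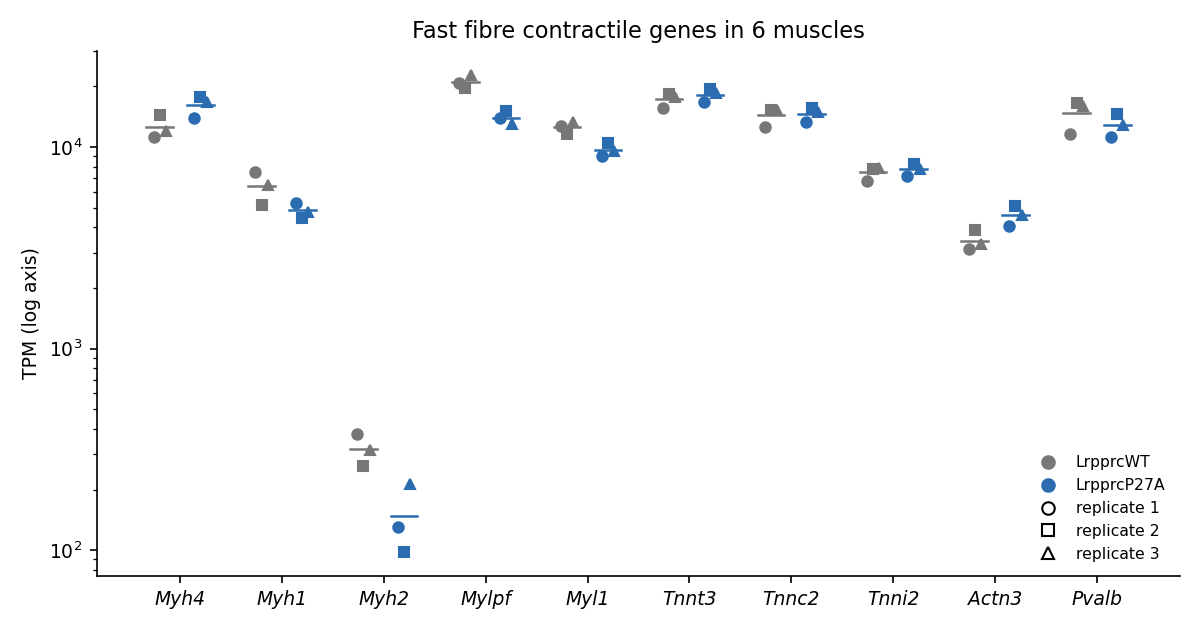
TPM (log axis) of the 10 fast genes in each muscle, with LrpprcWT in grey, LrpprcP27A in blue, a marker shape for each replicate number and a line at the group mean. Mylpf, Myl1 and Myh2 lie lower in all LrpprcP27A muscles than in any LrpprcWT muscle, Actn3 lies higher in all of them, and the troponins lie side by side.

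Groups were compared by limma on log2(TPM + 1), with Benjamini-Hochberg adjustment over the 11611 genes. The fast genes did not move as a block. *Mylpf*, *Myl1* and *Myh2* fell and *Actn3* rose, while 6 genes did not pass an adjusted p under 0.05. Over all genes tested, 1.34% were called higher and 23.3% lower. The members' 3 lower calls of 10 are therefore near the background, and the 1 higher call is a single gene. In 3 of the 10 the LrpprcP27A muscles all lay below the LrpprcWT muscles and in 1 they all lay above, against 47.6% and 3.51% of all genes. The median log2 fold change of the 10 genes was -0.078, above the -0.32 of all genes, and 0.30 after median-of-ratios scaling, against -0.0047. Of the 10, 6 lay above the median of all genes on the deposited scale.

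Muscles with the same replicate number were taken as a pair from the same mouse, which the labels do not state outright. The comparison was therefore repeated with the replicate number as a block. It called 2 of the 10 higher and 4 lower by limma, adding *Myh4* and *Myh1*, against 2.69% and 48.4% of all genes. With median-of-ratios scaling and no block, limma called 1 higher and 0 lower (unadjusted p under 0.05 in 4 higher and 1 lower), against 5.25% and 6.03% of all genes, and with scaling and block together 3 higher (*Actn3*, *Myh4* and *Tnni2*) and 1 lower (*Myh2*), against 13.4% and 15.8%. *Actn3* was the gene called in all 4 of these fits. The counts also depended on single libraries. Without the LrpprcWT library of replicate 1 or of replicate 3, limma called 0 of the 10 genes in either direction (at an unadjusted p under 0.05, 1 higher and 4 lower without replicate 1, and 1 and 3 without replicate 3), although all 4 genes called with every library kept their direction. Without that of replicate 2 it called 2 higher and 4 lower. Without the LrpprcP27A library of replicate 1 it called 1 higher and 2 lower, without replicate 2 it called 0 and 2, and without replicate 3 it called 0 and 1. The counts over all genes moved with them, from 3 higher and 15 lower without LrpprcWT replicate 3 to 304 higher and 6913 lower without LrpprcWT replicate 2.

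**Figure D2:**
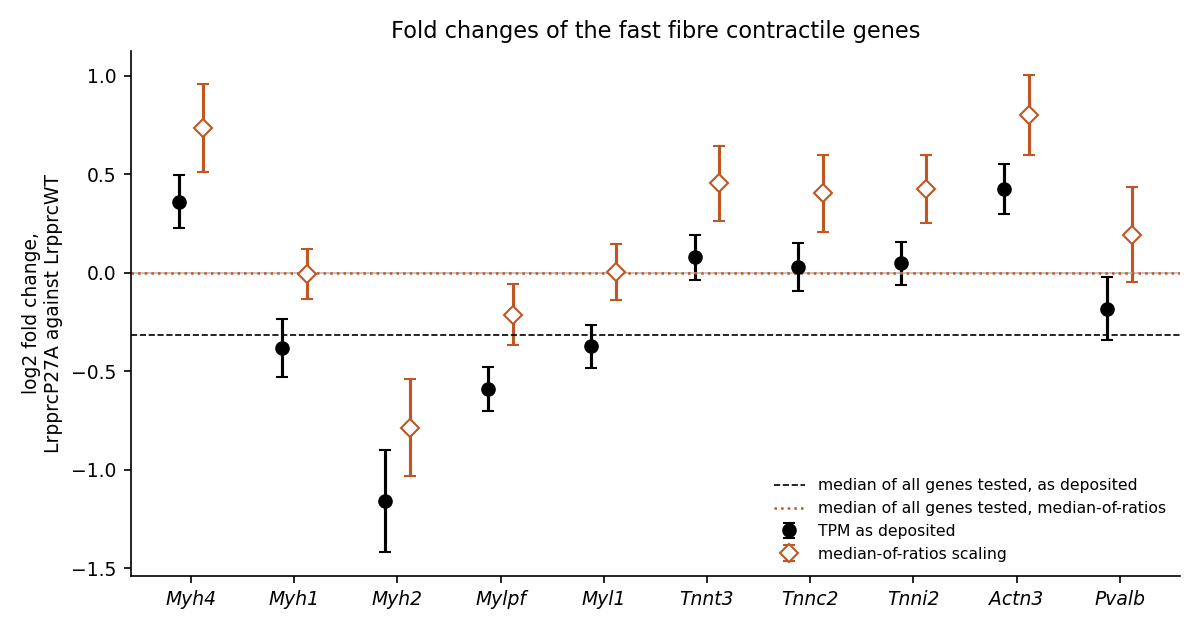
Log2 fold changes of the 10 fast genes on the log2(TPM + 1) scale, on the deposited scale (filled circles) and after median-of-ratios scaling (open diamonds), with bars of 1 standard error. Lines mark the median of all genes tested on each scale, -0.32 and -0.0047, and the order of the genes from Myh2 to Actn3 is similar on both.

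The myosin heavy chains are the motor proteins of the thick filament, and their 3 adult fast genes lie side by side. On chromosome 11 of GRCm39, all on the plus strand, the annotation places the protein-coding genes *Myh2* at 67061838 to 67088989, *Myh1* at 67089132 to 67116631 and *Myh4* at 67128336 to 67151274, between the developmental genes *Myh3* and *Myh8*. On the deposited scale their fold changes differed in sign, although of the 3 only *Myh2* was called without the block. The 250 bases before the RefSeq start of each are shown, as listed for mouse (GRCm38.p6) and located in GRCm39 by exact match. They lie at chr11:67128388-67128637 for *Myh4*, chr11:67090678-67090927 for *Myh1* and chr11:67061603-67061852 for *Myh2*, all plus strand. RefSeq and the GRCm39 annotation do not start these genes at the same base. The *Myh1* and *Myh4* stretches lie inside the genes as the annotation draws them, and the end of the *Myh2* stretch does too. Capitals mark matches, on either strand, to a TATA box (TATAAA), an E-box (CANNTG, the letters bound by the MyoD family), MEF3 (TCAGGTT, known as a muscle promoter element), MEF2 and the CArG box of serum response factor.
Myh4: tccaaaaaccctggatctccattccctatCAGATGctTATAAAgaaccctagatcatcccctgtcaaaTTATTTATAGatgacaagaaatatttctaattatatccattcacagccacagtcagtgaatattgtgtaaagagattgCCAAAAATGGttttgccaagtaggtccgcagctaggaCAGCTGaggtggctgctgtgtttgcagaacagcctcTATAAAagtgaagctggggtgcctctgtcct
Myh1: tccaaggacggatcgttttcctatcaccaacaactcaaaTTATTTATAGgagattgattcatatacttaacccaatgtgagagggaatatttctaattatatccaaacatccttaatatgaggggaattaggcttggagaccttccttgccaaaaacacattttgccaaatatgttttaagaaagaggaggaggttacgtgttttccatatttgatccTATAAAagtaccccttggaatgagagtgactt
Myh2: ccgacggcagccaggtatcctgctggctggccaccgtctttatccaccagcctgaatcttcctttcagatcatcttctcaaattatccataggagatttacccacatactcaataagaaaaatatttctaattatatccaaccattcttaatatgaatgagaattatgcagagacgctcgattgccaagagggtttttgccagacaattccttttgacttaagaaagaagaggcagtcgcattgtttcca
The *Myh4* sequence holds TATA boxes 31 and 213 bases before the start, E-boxes at 67 and 221, a CArG box at 104 and a MEF2 match at 182. The *Myh1* sequence holds a TATA box at 32 and a MEF2 match of the same 10 letters at 211, and the *Myh2* sequence holds none of the 5 motifs. In both genes the MEF2 match contains TTTATA, the TATA box on the other strand, which is not counted here as a further site. Of 32536 mouse promoters of the same length, 12.3% hold the TATA box, 66.2% an E-box, 3.49% MEF3, 2.89% MEF2 and 1.48% a CArG box. A match describes letters and is neither a shown binding site nor a cause. Of the 10 genes, 7 had a sequence in that table, and *Tnnt3*, *Tnni2* and *Actn3* did not.

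*Myh2*, the type 2a heavy chain, had 377, 262 and 313 TPM in the LrpprcWT muscles of replicates 1 to 3 and 131, 98.1 and 213 TPM in the LrpprcP27A muscles. All LrpprcP27A values were below all LrpprcWT values, and the mean fell from 317 ± 57.3 to 147 ± 59.4 TPM (SD, n = 3), which is 53.6% lower. Its log2 fold change of -1.16 (standard error, SE, 0.26, limma adjusted p = 0.0236) was the largest in size among the 10 genes. After median-of-ratios scaling *Myh2* remained lower by value at -0.79, with an adjusted p from limma of 0.0768, and 0.0493 with the block. Without the LrpprcWT library of replicate 1 or 3 its adjusted p from limma was 0.0765 and 0.108.

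*Myh1*, the type 2x heavy chain, had 7539.8, 5137 and 6488 TPM with LrpprcWT and 5294, 4475 and 4792 TPM with LrpprcP27A. The groups overlapped, because the LrpprcWT muscle of replicate 2 lay below the LrpprcP27A muscle of replicate 1, but within each pair the LrpprcP27A muscle was the lower. The log2 fold change was -0.38 (SE 0.15) with an adjusted p from limma of 0.0804, and 0.0150 with the replicate block. Without the LrpprcWT library of replicate 2 it was -0.53 (limma adjusted p = 0.0102). After median-of-ratios scaling it was -0.0069 (limma adjusted p = 0.978, blocked 0.968), so that relative to the typical gene *Myh1* showed no difference larger than its standard error of 0.13.

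*Myh4*, the type 2b heavy chain and the most abundant of the 3, had 11282, 14369 and 12083 TPM with LrpprcWT and 13932, 17667 and 16845 TPM with LrpprcP27A. Again the groups overlapped only through the LrpprcWT muscle of replicate 2, and in each pair the LrpprcP27A muscle was the higher, by 0.30, 0.30 and 0.48 on the log2 scale. The log2 fold change was 0.36 (SE 0.14), with an adjusted p from limma of 0.0751, and 0.0203 with the block. Without the LrpprcWT library of replicate 2 it was 0.46 (limma adjusted p = 0.0221). Median-of-ratios scaling moved it to 0.74 (limma adjusted p = 0.0707, blocked 0.0184), and *Myh4* stayed higher by value under every scaling tried.

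A share within a library does not move with its scaling. Of the summed TPM of *Myh1*, *Myh2* and *Myh4*, *Myh4* held 58.8%, 72.7% and 64.0% with LrpprcWT and 72.0%, 79.4% and 77.1% with LrpprcP27A. The share was higher with LrpprcP27A by 13.2, 6.75 and 13.1 percentage points in the 3 pairs, but the groups overlapped and the difference in means of 11.0 points did not pass (exact permutation test, two-sided, p = 0.2, adjusted 0.2 over the 3 shares). Within pairs the exact sign-flip test gave p = 0.25, the smallest that 3 pairs allow. *Myh1* held 39.3%, 26.0% and 34.4% against 27.3%, 20.1% and 21.9%, likewise lower in 3 of 3 pairs with overlapping groups. *Myh2* held 1.96%, 1.33% and 1.66% against 0.675%, 0.441% and 0.977%, with no overlap (two-sided exact permutation test, p = 0.1, the lowest reachable with 3 against 3, adjusted 0.2). The sum of the 3 heavy chains was 19283 ± 448 TPM with LrpprcWT and 21149 ± 1565 TPM with LrpprcP27A (SD, n = 3; exact permutation test, two-sided, p = 0.2). The heavy chains are alike enough that reads can be shared: 7.82% of the 100-base windows of the *Myh1* transcript, 8.20% of those of *Myh2* and 3.89% of those of *Myh4* also occur in another of the genes compared, and none of the windows of the other 7 members do. Of the *Myh2* windows, 6.78% occur in *Myh1*, which had 4475 TPM or more in each library beside 377 TPM or less of *Myh2*. How the authors' counting assigned such reads, and what part of the *Myh2* values they make up, was not tested.

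**Figure D3:**
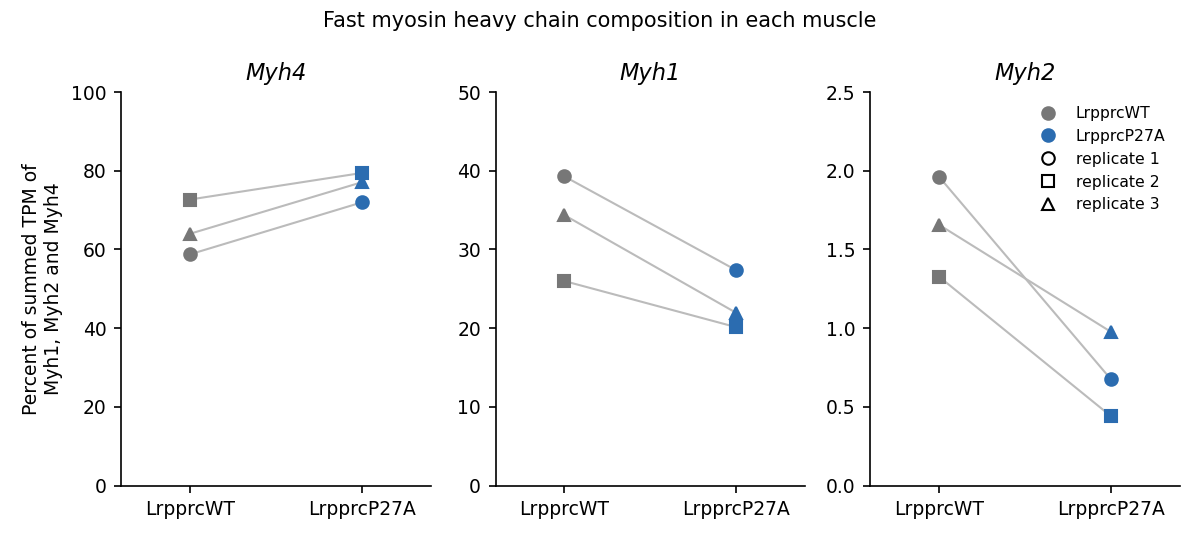
Percent of the summed TPM of Myh1, Myh2 and Myh4 held by each gene, in each muscle, with a line joining the muscles with the same replicate number; the vertical scales differ and start at 0. Myh4 is higher and Myh1 and Myh2 are lower with LrpprcP27A in each of the 3 pairs.

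The light chains wrap around the neck of each myosin head, and *Myl1* codes for the fast essential and *Mylpf* for the fast regulatory light chain, which myosin light chain kinase phosphorylates. Both fell on the deposited scale, while the summed TPM of the heavy chains they bind was not lower in any of the 3 pairs. *Mylpf* (chromosome 7, 126807207 to 126813470, plus strand) had 20715, 19709 and 22904 TPM with LrpprcWT and 14006, 15080.3 and 12983 TPM with LrpprcP27A. The groups were far apart, and the mean of 21109 ± 1634 fell to 14023 ± 1049 TPM (SD, n = 3), which is 33.6% lower. The log2 fold change was -0.59 (SE 0.11, limma adjusted p = 0.0168, blocked 0.00110). The 250 bases before its RefSeq start, shown because *Mylpf* had the smallest unadjusted p of the 10 genes, lie at chr7:126810530-126810779 of GRCm39, inside the gene as the annotation draws it, with the E-box match in capitals 51 bases before the start.
Mylpf: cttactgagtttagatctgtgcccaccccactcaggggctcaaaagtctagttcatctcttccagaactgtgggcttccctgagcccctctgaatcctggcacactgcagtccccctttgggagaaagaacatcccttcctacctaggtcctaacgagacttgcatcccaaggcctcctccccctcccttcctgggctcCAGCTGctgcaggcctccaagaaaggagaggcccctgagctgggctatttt
*Myl1* (chromosome 1, 66963454 to 66984642, minus strand) had 12754, 11569.9 and 13380.3 TPM with LrpprcWT and 9030.1, 10462 and 9611 TPM with LrpprcP27A. These groups did not overlap either, and the mean was 22.8% lower, with a log2 fold change of -0.37 (SE 0.11, limma adjusted p = 0.0410, blocked 0.0196). The 2 genes differed in how they stood against the typical gene. After median-of-ratios scaling *Mylpf* was at -0.21 (limma adjusted p = 0.360, blocked 0.248) and *Myl1* at 0.0017 (limma adjusted p = 0.995), so neither differed past the threshold once the typical gene was set to no change. *Mylpf* was not called by limma without the LrpprcWT library of replicate 1 or 3 (adjusted p = 0.0522 and 0.0840) or the LrpprcP27A library of replicate 3 (0.0668). *Myl1* was called only without the LrpprcWT library of replicate 2 (limma adjusted p = 0.0132), and without each of the others its adjusted p lay between 0.0973 and 0.133.

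The troponin subunits form the calcium switch of the thin filament: *Tnnc2* codes for the fast troponin C that binds calcium, *Tnni2* for the inhibitory subunit and *Tnnt3* for the subunit that anchors the complex to tropomyosin. None of the 3 was called on the deposited scale, and their levels kept close to fixed proportions. *Tnnt3* (chromosome 7, 142048605 to 142070280, plus strand) had 15669, 18439 and 17792 TPM with LrpprcWT and 16809, 19438 and 18479 TPM with LrpprcP27A. *Tnni2*, which lies near it on the same strand (141995545 to 141998147, with *Lsp1* between), had 6816, 7832 and 7898 against 7208, 8253 and 7826 TPM. *Tnnc2* (chromosome 2, 164619075 to 164621887, minus strand) had 12544, 15224 and 15341 against 13276, 15722 and 14856 TPM. In all 3 genes the groups overlapped and the lowest value of each group was in replicate 1. The log2 fold changes and their 95% intervals from limma were 0.077 (-0.18 to 0.33) for *Tnnt3*, 0.048 (-0.20 to 0.29) for *Tnni2* and 0.027 (-0.25 to 0.31) for *Tnnc2*, with adjusted p of 0.586, 0.729 and 0.861. The furthest bound of these intervals is 0.33, and changes within them could not be seen with 3 muscles a group. The signs depend on scaling: median-of-ratios scaling gave 0.45, 0.42 and 0.40 (adjusted p from limma = 0.146, 0.136 and 0.192, and 0.0538, 0.0440 and 0.0655 with the block), whereas quantile normalization gave -0.10 for *Tnnt3* and -0.027 for *Tnnc2*. The *Tnnt3* to *Tnni2* ratio of TPM was 2.30, 2.35 and 2.25 with LrpprcWT and 2.33, 2.36 and 2.36 with LrpprcP27A. Of the 45 pairs among the 10 genes this one varied least over the 6 libraries, with an SD of 0.027 in log2 ratio.

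*Actn3*, the alpha-actinin of fast fibres, cross-links actin filaments at the Z-disc. It was the member that rose (chromosome 19, 4911215 to 4928529, minus strand). It had 3107, 3866 and 3295 TPM with LrpprcWT and 4057, 5097 and 4630.0 TPM with LrpprcP27A. All LrpprcP27A values were above all LrpprcWT values, and the mean went from 3422 ± 395 to 4594 ± 521 TPM (SD, n = 3), 34.2% higher. The log2 fold change was 0.42 (SE 0.13, limma adjusted p = 0.0426, blocked 0.00657), and 0.80 after median-of-ratios scaling (limma adjusted p = 0.0499, blocked 0.00983). Without the LrpprcWT library of replicate 1 or 3, or the LrpprcP27A library of replicate 2 or 3, the adjusted p from limma was 0.141, 0.132, 0.160 and 0.116, and the value stayed above 0. *Actn3* kept a nearly constant proportion to *Myh4*, whose TPM was 3.63, 3.72 and 3.67 times that of *Actn3* with LrpprcWT and 3.43, 3.47 and 3.64 times with LrpprcP27A.

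*Pvalb* codes for parvalbumin, which binds calcium in the cytosol of fast fibres and speeds their relaxation. It had 11622, 16561 and 15910.3 TPM with LrpprcWT and 11209, 14553 and 12812.5 TPM with LrpprcP27A (chromosome 15, 78075314 to 78091149, minus strand). The LrpprcWT muscle of replicate 1 lay as low as the LrpprcP27A muscles, and *Pvalb* was lower with LrpprcP27A in 3 of 3 pairs. The log2 fold change of -0.18 (95% interval -0.55 to 0.18) did not pass (limma adjusted p = 0.366, blocked 0.209), and its sign turned with scaling, to 0.19 with median-of-ratios factors and 0.0091 with rescaling over nuclear protein-coding genes.

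Ratios between the fast genes within a library show the unequal change directly, since the scaling of a library cancels in them. The summed TPM of *Myl1* and *Mylpf* was 1.74, 1.58 and 1.92 times that of the 3 heavy chains with LrpprcWT and 1.19, 1.15 and 1.03 times with LrpprcP27A. The LrpprcP27A muscles all lay below the LrpprcWT muscles, and the mean went from 1.75 ± 0.170 to 1.12 ± 0.0808 (SD, n = 3), a difference of -0.64 in log2 ratio (two-sided exact permutation test, p = 0.1, the lowest reachable with 3 against 3, adjusted 0.167 over 10 ratios chosen after the values were seen). Light chains also lay lower against the troponins, by -0.56 in log2 ratio with no overlap (exact permutation test, two-sided, p = 0.1). Within the light chains, *Mylpf* was 1.62, 1.70 and 1.71 times *Myl1* with LrpprcWT and 1.55, 1.44 and 1.35 times with LrpprcP27A, again with no overlap. *Myh4* to *Myh2* differed by 1.53 in log2 ratio, also with no overlap (exact permutation test, two-sided, p = 0.1). With a library left out, the light to heavy difference lay between -0.71 and -0.57. Among all 45 pairs of the 10 genes, the difference largest in size was -1.58 in log2 ratio for *Myh2* to *Actn3*.

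**Figure D4:**
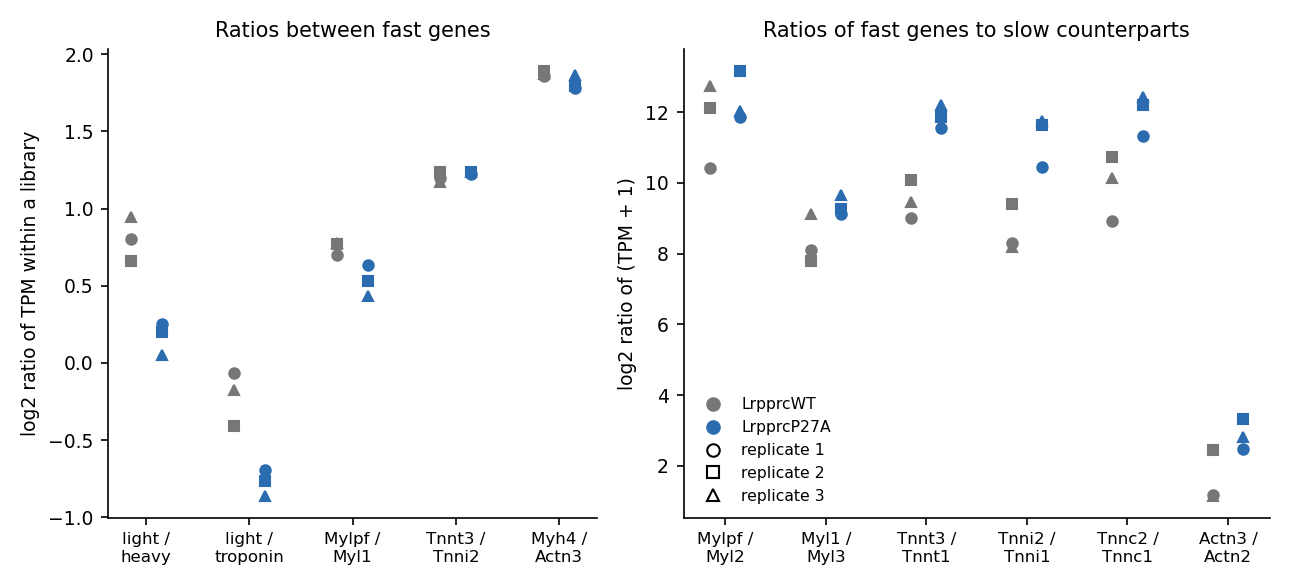
Log2 ratios within each library, LrpprcWT in grey and LrpprcP27A in blue. On the left, ratios of TPM between fast genes, where light is Myl1 plus Mylpf, heavy is Myh1, Myh2 and Myh4, and troponin is Tnnt3, Tnni2 and Tnnc2. On the right, ratios of TPM + 1 of fast genes to their slow counterparts. Light to heavy and light to troponin ratios are lower with LrpprcP27A without overlap, Tnnt3 to Tnni2 stays level, and 5 of the 6 fast to slow ratios are higher without overlap.

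The light chains, the troponins and *Actn3* were next set against the slow or shared gene for the same kind of protein, 6 pairs in all, while the heavy chains and *Pvalb* were not. *Tnni1*, *Tnnt1*, *Tnnc1* and *Myl3*, the slow troponin subunits and the slow essential light chain, fell on the deposited scale. *Actn2*, an alpha-actinin of all fibres, was also called lower (limma adjusted p = 0.0482), but its groups overlapped. After median-of-ratios scaling without the block, limma called neither *Actn2* nor *Myl3* (adjusted p = 0.158 and 0.0959). Of the 7 slow counterparts, 0 were called higher and 5 lower by limma (3 lower after median-of-ratios scaling, 7 with the block, 5 with both), with a median log2 fold change of -1.38 against -0.32 over all genes. Of all genes, 23.3% were called lower, 6.03% after median-of-ratios scaling, 48.4% with the block and 15.8% with both. The slow genes other than *Actn2* were low in both groups. *Tnni1* had 20.8, 10.5 and 25.8 TPM with LrpprcWT and 4.18, 1.59 and 1.26 TPM with LrpprcP27A, beside 6816 TPM or more of *Tnni2*. The log2 ratio (TPM + 1) of *Tnni2* to *Tnni1* was 8.29, 9.41 and 8.20 with LrpprcWT and 10.4, 11.6 and 11.8 with LrpprcP27A. That is a difference of 2.65 with no overlap, and the differences for *Tnnt3* to *Tnnt1*, *Tnnc2* to *Tnnc1*, *Actn3* to *Actn2* and *Myl1* to *Myl3* were 2.36, 2.06, 1.28 and 1.01, also with no overlap (two-sided exact permutation test, p = 0.1 each, the lowest reachable with 3 against 3, adjusted 0.12 over 6 pairs). *Mylpf* to *Myl2* differed by 0.59 with overlap (p = 0.6, exact permutation test), and by -0.075 without the LrpprcWT muscle of replicate 1, which had 14.0 TPM of *Myl2* against 2.32 to 3.41 TPM in the other LrpprcWT muscles. In the troponin pairs the fold changes of the slow genes *Tnni1*, *Tnnt1* and *Tnnc1* were -2.60, -2.28 and -2.03. The left-out library mattered for the slow genes too, with 1 of the 7 called by limma without LrpprcWT replicate 3 and 3 without LrpprcWT replicate 1 or LrpprcP27A replicate 3.

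Other muscle genes place the fast set. Kinases of the myosin light chain rose: of the 3 genes in that list, 2 were called higher and 0 lower, and the phosphatase subunit *Ppp1r12b* was not called. Of all genes, 1.34% were called higher, and 5.25% after median-of-ratios scaling. *Mylk2*, the skeletal myosin light chain kinase, had 436, 381 and 376 TPM with LrpprcWT and 645, 609.9 and 617 TPM with LrpprcP27A, a log2 fold change of 0.65 (limma adjusted p = 0.0123). *Mylk4*, a related kinase gene, had 254, 173 and 170.1 against 447, 383 and 392 TPM, a log2 fold change of 1.05 (limma adjusted p = 0.0123). No value overlapped between the groups in either gene, both were still called with median-of-ratios scaling, at 1.03 and 1.43 (adjusted p = 0.0162 each from limma), and of the fits with a library left out both lost the call in that without LrpprcWT replicate 3 (adjusted p = 0.0730 and 0.0837 from limma). With no filter on low values, and by the Kruskal-Wallis test, 0 of the 3 genes were called (2 at an unadjusted p under 0.05). The Kruskal-Wallis test could call no gene after adjustment with 3 muscles a group. The kinases were higher in the same muscles in which *Mylpf* was lower.

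The developmental isoforms *Myh3*, *Myh8*, *Myl4*, *Tnnt2* and *Actc1*, which are made before birth and during regeneration, all fell, 5 of 5 by limma on the deposited scale and after median-of-ratios scaling, with log2 fold changes from -2.90 for *Myh8* to -1.62 for *Tnnt2*. Without the LrpprcWT library of replicate 3, 0 of these 5 were called by limma (5 at an unadjusted p under 0.05). Over all genes 1.34% were called higher and 23.3% lower, and the lower calls in the next 4 lists are near or below that share. Other sarcomere genes, not all of them shared by fast and slow fibres, gave 0 higher and 2 lower of 17. These were the leiomodins *Lmod2* and *Lmod3*, which lengthen and stabilise thin filaments, at -1.85 and -0.56. Of 12 calcium-handling genes 0 were higher and 3 lower: *Casq1*, the calcium store protein of the sarcoplasmic reticulum, at -0.68, and the calcium channel subunits *Cacng1* and *Cacnb1* at -0.64 and -0.58. Of 12 genes of glycolysis and creatine kinase 0 were called by limma (at an unadjusted p under 0.05, 2 higher and 1 lower), with *Ckm*, the muscle creatine kinase and the most abundant of them, at 0.14 and *Pygm*, the muscle glycogen phosphorylase, at 0.28 (adjusted p = 0.324 and 0.0796 from limma). Of 14 transcription regulators linked to the fast program 0 were higher and 2 lower, *Mafa* at -0.45 and *Nfix* at -0.32. After median-of-ratios scaling limma called 3 of the sarcomere genes, 2 of the calcium-handling genes, 2 of the metabolic genes and 1 of the regulators higher, and of these 4 lists only 1 sarcomere gene lower, while *Nfix* turned to 0.054. Of all genes, 5.25% were called higher and 6.03% lower after that scaling. On deposited TPM with the block it called 0 higher in each of the 4 lists and 3 sarcomere, 3 calcium-handling, 1 metabolic and 7 regulator genes lower, against 48.4% of all genes. With block and scaling together it called 10, 5, 6 and 4 higher and 1 sarcomere gene lower, against 13.4% and 15.8%. Without LrpprcWT replicate 3 limma called 0 genes in these 4 lists (4, 3, 2 and 3 at an unadjusted p under 0.05, in the order given).

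**Figure D5:**
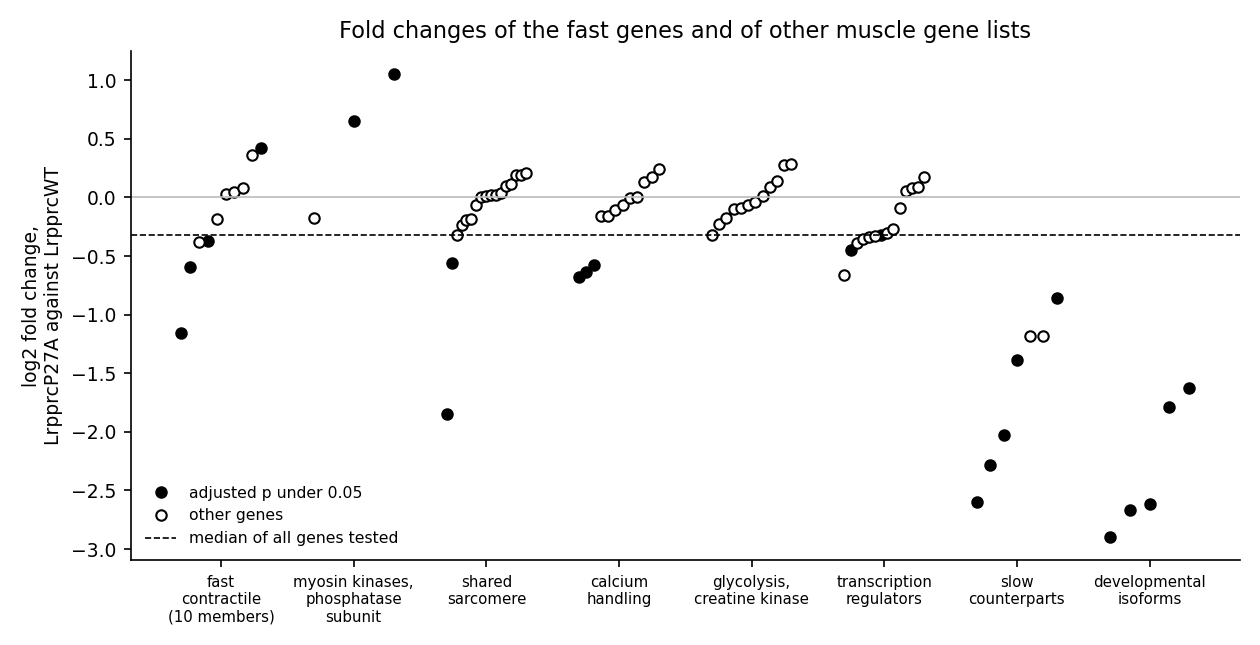
Log2 fold changes on the log2(TPM + 1) scale of the fast genes and of 7 other lists of muscle genes, each point a gene, filled where the adjusted p from limma was under 0.05. The list labelled shared sarcomere holds other sarcomere genes, not all of them shared by fast and slow fibres. The dashed line is the median of all genes tested, -0.32, and the slow counterparts and developmental isoforms lie below every fast gene other than Myh2, while Mylk2 and Mylk4 lie above them.

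Markers of fibroblasts and macrophages were lower with LrpprcP27A, beside 23.3% of all genes called lower and 1.34% called higher. The 2 of 7 endothelial and 1 of 4 Schwann cell markers called lower are near that share. In a bulk muscle, fewer cells of a type and less RNA per cell cannot be told apart. Of 7 fibroblast markers 7 were lower by limma, and their summed level was 1007 to 1675 TPM with LrpprcWT and 269 to 592 TPM with LrpprcP27A. Of 8 macrophage markers tested 8 were lower (309 to 618 against 104 to 213 TPM, with *Cd163* under the filter). Of 7 endothelial markers 2 were lower (192 to 341 against 143 to 197 TPM), as were 2 of 4 satellite cell markers (16.5 to 20.1 against 13.2 to 14.1 TPM) and 1 of 4 Schwann cell markers (52.9 to 66.5 against 29.9 to 59.3 TPM, with *Sox10* under the filter). None of 3 adipocyte markers (7.55 to 22.5 against 14.4 to 29.5 TPM, with *Plin1* and *Lep* under the filter) or 5 erythroid markers (2610.1 to 4206 against 3784 to 4719 TPM) was called, and 0 of 8 myofibre markers was called by limma (58838 to 66772 against 54684 to 58578 TPM). At an unadjusted p under 0.05 these 3 lists held 0, 0 and 1 genes, and *Lep* was the only marker at 0 in any library. After median-of-ratios scaling limma called 5 of the fibroblast, 3 of the macrophage and 1 of the satellite cell markers lower, 0 of the endothelial and Schwann cell markers (1 and 0 at an unadjusted p under 0.05), and 1 myofibre marker higher, against 6.03% lower and 5.25% higher over all genes. On deposited TPM with the block it called all 7 fibroblast, 8 macrophage and 7 endothelial markers tested, 3 satellite cell markers and 1 Schwann cell marker lower, against 48.4% of all genes, and 2 erythroid markers (*Hbb-bt* and *Hbb-bs*, adjusted p = 0.0148 and 0.0486) and 1 adipocyte marker (*Cfd*, adjusted p = 0.0233) higher, against 2.69%. With block and scaling it called 5 of 5 erythroid and 2 myofibre markers higher, against 13.4% of all genes. In that fit 8 macrophage, 6 fibroblast, 3 endothelial and 3 satellite cell markers were called lower by limma, against 15.8%. Without LrpprcWT replicate 1 and with no block or scaling it called 4 fibroblast and 2 macrophage markers lower, and without LrpprcWT replicate 3 it called 0 genes of any marker list (7 fibroblast and 7 macrophage markers at an unadjusted p under 0.05). The 10 fast genes summed to 94950.3 to 115406 TPM. The marker lists hold only a few genes of each cell type, so their sums do not measure how much RNA those cells gave. The part of these markers, and of *Rn18s-rs5*, in the fast genes' values was not tested.

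By Pearson correlation over the 6 libraries of log2(TPM + 1), the genes of at least 10 TPM whose pattern was most like the mean of the 10 members were *Enho* (0.98), *Otud1* (0.98), *Nop16* (0.98), *Acaa2* (0.97) and *Ube2d1* (0.97). The mean does not stand for every member: *Myl1* correlated with it at 0.88 and *Mylpf* at 0.82, but *Myh4* at -0.40 and *Actn3* at -0.51. All points share the 6 libraries and their composition, and these values describe the libraries.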

How the data were processed

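RNA-seq was done on 6 TA muscles. The authors trimmed and filtered the paired-end reads, aligned them to GRCm39 (mm39, also in the submitters' processing notes) in CLC Genomics Workbench and deposited TPM for 41709 genes. TPM keeps no depth, so counting error is unknown, and how reads shared by similar genes were assigned is not given in the sources used here. The labels give no separate extraction or sequencing batch.

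Genes averaging at least 1 TPM over the 6 libraries, 11611 in all, were put on the log2(TPM + 1) scale and compared with limma 3.58.1 in R 4.3.3 (empirical Bayes with trend, unpaired, Benjamini-Hochberg). Fold changes on this scale understate changes of low genes. The study names a Kruskal-Wallis test on log TPM, which is an alternative here. With 3 muscles a group it could call no gene after adjustment. Its adjusted p for *Mylpf*, whose groups do not overlap, was 0.0969. Shares and ratios were compared by exact permutation tests in scipy 1.17.1. The permutation p-values rest on the 3 muscles a group alone. Those of limma also borrow spread from other genes of similar level, so they can be smaller than the gene's own 3 muscles a group would give. With the block they concern differences within pairs. With a library left out, limma pools the spread over the remaining muscles.

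Same-numbered libraries are taken as the contralateral muscles of a mouse. After subtraction of the group means, their log2 values had correlations over genes of 0.36, 0.53 and 0.36, and blocked values are given beside the members and as counts for the lists. That the number is the mouse is not stated outright.

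The members and the gene lists were chosen with earlier results of these data known. All 10 members are named, and of each other list the genes called with the largest fold changes, at most 4, or the most abundant where none was called. Further genes named from the lists were chosen after their values were seen, as were the 10 ratios between fast genes. Macrophage, fibroblast and other markers follow common usage. Positions are from GENCODE M39 by symbol. *Aldoa* was not found in the table under its symbol. Promoters are from RefSeq. On simulated data for this comparison, with 11611 genes, 194 of 200 genes changed by a log2 fold change of 2 were recovered with 15 false calls. The simulated noise was independent between genes and libraries, with no pairing and no difference in composition. A change of 2 is larger than that of any of the 10 members, so recovery at their sizes was not tested.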

Additional observations from a re-analysis of the deposited data

How the results depend on the processing

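Of 180 fits of the 10 genes other than the one reported, 127 kept direction and side of the threshold, 31 kept direction but lost the call, 9 gained it and 13 reversed. This tally is not a measure of robustness. A change of only the filter, trend, block or test leaves the fold change as it is, so such fits could not reverse. The Kruskal-Wallis fits could not be called, so their labels were fixed in advance. The number called higher was 0 with no filter, without the trend and by the Kruskal-Wallis test (1 at an unadjusted p under 0.05), 2 with the replicate block (also with nuclear protein-coding rescaling or quantile normalization, both added after the data were seen) and 3 with the block and median-of-ratios scaling. The number called lower was 0 with no filter, with median-of-ratios scaling and by Kruskal-Wallis (3 unadjusted), and 1 with nuclear rescaling and with the block and median-of-ratios scaling. It was 2 with the block and nuclear rescaling, and 4 with the block and quantile normalization. With 3 against 3 the Kruskal-Wallis test could call no gene after adjustment, so its counts of 0 do not bear on the processing. Leaving out 1 library at a time, the counts were 0 to 2 higher and 0 to 4 lower. The median log2 fold change was 0.30 with median-of-ratios and 0.11 with nuclear rescaling, with or without the block, and -0.16 to 0.0031 with a library left out. Signs reversed, with or without the block, for *Myl1* (0.0017) and *Pvalb* (0.19) under median-of-ratios scaling, for *Pvalb* (0.0091) under nuclear rescaling, and for *Tnnt3* (-0.10) and *Tnnc2* (-0.027) under quantile normalization. With a library left out, *Tnni2* ranged from -0.021 to 0.0999, *Tnnc2* from -0.068 to 0.095 and the *Mylpf* to *Myl2* log2 ratio difference from -0.075 to 1.08. The fast share was 1.30 percentage points higher when taken of nuclear protein-coding TPM. Under nuclear rescaling the block added calls of *Myh4* higher and *Myh2* lower (limma adjusted p = 0.0201 and 0.0235). Under quantile normalization it added *Myh4* higher and *Myh1* and *Myh2* lower (limma adjusted p = 0.0205, 0.0450 and 0.0322). The *Myh4* share with *Myh7* in the denominator differed by the same 11.0 points. The causes were not tested. The unknown depth limits what the low slow genes can show.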
